A study of Mus musculus with 107 samples.

Results

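Mouse ears given indomethacin before sulfur mustard were compared with mouse ears given sulfur mustard alone. The comparison took 22 of the 107 arrays of the series, which are the array A and array B hybridizations of 11 of its 64 ears, chosen by their treatment labels. Sulfur mustard, bis-(2-chloroethyl) sulfide, is an alkylating agent that damages DNA and blisters skin, and RNA was taken from ear skin 24 h after it was applied. The series asked how topical drugs alter the response of ear skin to this agent.

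The right ears of animals 16, 17, 18, 19, 21 and 22 had 1.34 mg (3.74 µmol) of indomethacin in 20 µL of ethanol, followed after 15 min by 0.08 mg (0.5 µmol) of sulfur mustard in 5 µL of methylene chloride. These 6 are called pretreated ears. The right ears of animals 1, 3, 5, 36 and 37 had the same dose of sulfur mustard alone and are called mustard ears. Their labels name no ethanol, so the drug and its ethanol cannot be told apart in this comparison. The left ears of mustard-series animals had methylene chloride only, and 21 of them gave the level with this vehicle. The main fit also held 5 ears given octylhomovanillamide and 6 given dimercaprol, each 15 min before the same dose of sulfur mustard. Array A also held 4 ears given indomethacin without mustard, and 5 naive ears. It further held ears given ethanol, dimercaprol or octylhomovanillamide without mustard. Strain, sex and age were not given in the sources used here.

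Indomethacin blocks the cyclooxygenases, which turn arachidonic acid into the precursor of all prostaglandins and thromboxane. Prostaglandin E2 is made in injured skin, where it widens vessels, sensitizes nerves and acts on keratinocytes and leukocytes through receptors of which Ptger2 and Ptger4 raise cyclic AMP. When cyclooxygenase is blocked, arachidonic acid stays available to the lipoxygenases, which make leukotrienes and, in the epidermis, lipids of the water barrier. Arrays measure RNA, so neither prostaglandins nor the enzymes' activity were seen here.

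The mustard ears were not alike as hybridizations, and this bears on every result. Brightness, the 2% trimmed mean of the deposited signals, was 128 to 210.04 in pretreated ears on array A, and 85.7 and 66.3 in mustard ears 5 and 37 against 117 to 137 in mustard ears 1, 3 and 36. The Gapdh ratio, that is its 3′ over its 5′ signal on the log2 scale, which rises when RNA is broken or copied incompletely, was -0.11 to 0.15 in pretreated ears, and 0.63 and 0.78 in mustard ears 5 and 37. The other 3 mustard ears lay between -0.045 and 0.079. Array B gave ratios of 0.61 and 0.84 for ears 5 and 37, and there ear 1 was dim as well. Mustard ear 36 was bright and had an even Gapdh ratio, but held the lowest signal of the 5 mustard ears for many genes that mustard raises. The main values are therefore given with all 5 mustard ears and again without ears 5 and 37, and the part of RNA quality in the differences was not tested apart from these values and a fit with the Gapdh ratio as a covariate.

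**Figure D1:**
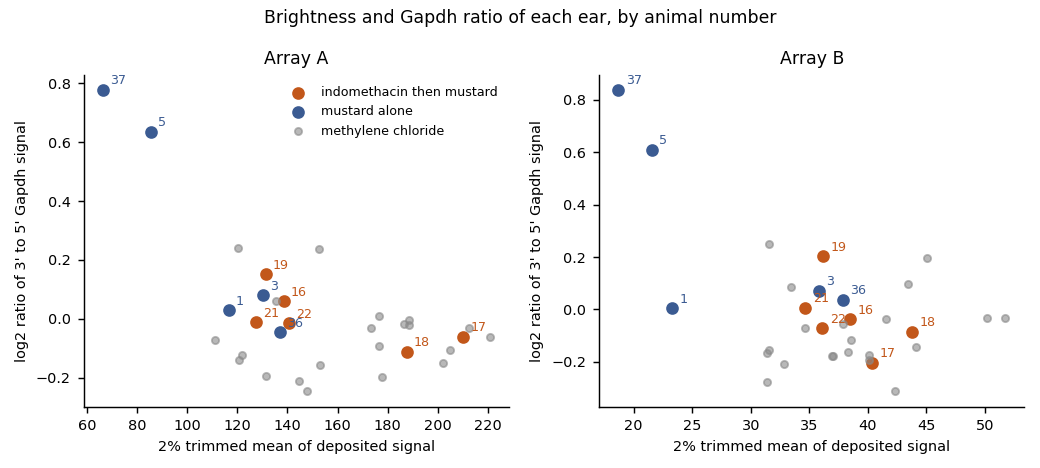
Each point is 1 ear, with its 2% trimmed mean of deposited signal on the x axis (array units) and its Gapdh 3′ over 5′ ratio on the y axis (log2), for array A (left) and array B (right); numbers are animals. Mustard ears 5 and 37 stand at ratios of 0.63 and 0.78 on array A, away from all pretreated ears, which reach 0.15.

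Signals below are scaled, so that every array has a 2% trimmed mean of 500, and fold changes are on the scale of log2(scaled signal + 16), with the standard error of the limma fit. A probe set was called when its Benjamini-Hochberg adjusted p was under 0.05. On array A, 287 of 15953 probe sets kept (1.8%) were called between pretreated and mustard ears, 183 of them higher (1.15%) and 104 lower (0.652%). The changes were mostly small, since 20 rises and 6 falls reached 2-fold. Array B, which holds less well known genes, gave 547 calls of 17287 (3.16%), of which 413 were higher (2.39%) and 134 lower (0.775%). A 2-fold change was reached by 92 of those rises and 45 of those falls. Without mustard ears 5 and 37 no probe set was called on either array, while 1181 on array A and 1341 on array B had an unadjusted p under 0.05. All 287 and all 547 calls kept their direction without those ears. That fit reused the other ears by which the calls were made, so the kept direction is not a separate test. A fit of the 2 groups alone also gave 0 calls on both arrays, with 1885 and 2269 at an unadjusted p under 0.05, and the Gapdh ratio as a covariate left 0 on array A and 1 on array B. Simulated 2-fold changes were recovered in 84% of cases on array A and in 46% on array B by the same fit. Recovery in a group that holds dim ears, such as mustard ears 5 and 37, was not tested.

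No difference in the size of the mustard response passed the test. Krt6b, Krt16, S100a8 and Cxcl1, genes that injured skin raises, overlapped between the groups. Mustard ear 36 was the lowest mustard ear for each of them. For Krt6b the overlap came from ear 36 alone, and the other mustard ears lay above every pretreated ear. A response score was taken over probe sets that had risen or fallen at least 2-fold in ears given another drug, octylhomovanillamide, before mustard, so that neither group compared had chosen them. It is an ear's median log2 distance from the methylene chloride ears. Over 67 risen probe sets of array A the score was 2.32 ± 0.37 in pretreated ears and 2.41 ± 0.48 in mustard ears (SD, n = 6 and 5). The difference of -0.090 had p = 0.688 in a 2-sided exact permutation test. Over 27 risen probe sets of array B it was 2.38 ± 0.46 in pretreated ears and 2.24 ± 0.37 in mustard ears, with an exact p of 0.602. The pretreated ears covered 1.74 to 2.74 on array A, and the mustard ears 1.58 to 2.73, with ear 36 the lowest. Without ear 36 the difference over risen probe sets of array A was -0.298, with an exact p of 0.157. The 10 fallen probe sets of array A averaged -1.30 ± 0.19 in pretreated ears and -1.03 ± 0.29 in mustard ears, with an exact p of 0.0801, or 0.32 after adjustment over the 4 scores. The 4 fallen probe sets of array B averaged -1.32 ± 0.28 in pretreated ears and -1.52 ± 0.41 in mustard ears, with an exact p of 0.353. None of the 4 scores passed the threshold of 0.05, and the smallest p the design allows is 0.00216. For the fallen score of array A, the unadjusted exact p was 0.0159 without pretreated ear 21 and 0.0476 without mustard ear 3. The other fits that left out 1 ear gave exact p-values of 0.081 to 0.2. Without the 2-fold threshold the exact p was 0.606.

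**Figure D2:**
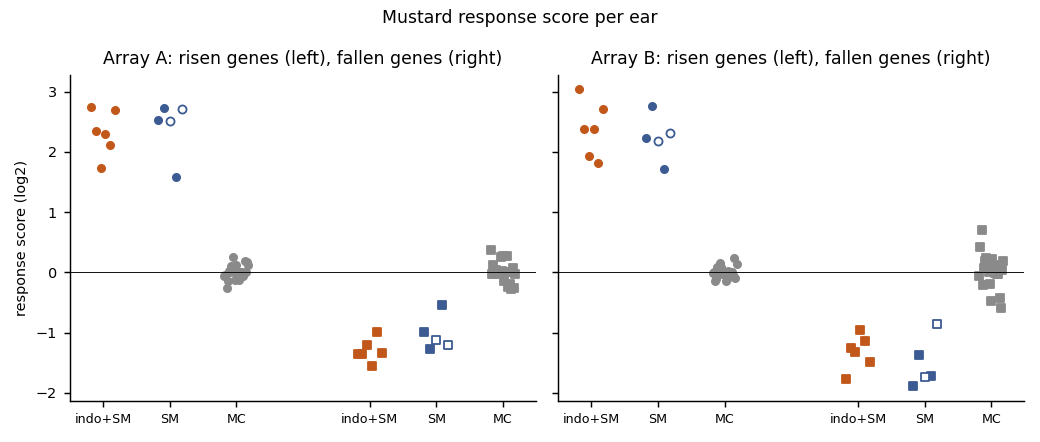
Mustard response score (y axis, log2 distance from the methylene chloride ears) of each ear for risen and fallen probe sets on array A (left panel) and array B (right panel); indo+SM is indomethacin then mustard, SM mustard alone and MC methylene chloride, and open symbols are mustard ears 5 and 37. On array A the pretreated ears lie between 1.74 and 2.74 for risen probe sets, and 4 of the 5 mustard ears above 2.5.

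Interferon-inducible genes had mostly positive log2 folds in pretreated over mustard ears, with or without the dim mustard ears. Interferons released in infected or damaged tissue switch on genes for GTPases that attack intracellular microbes, for sensors and for chemokines that draw T cells. Of 23 such genes listed, 12 were kept, 1 was called higher (1.15% of all probe sets of array A were) and none lower, 10 of 12 had a positive log2 fold, and the median was 0.43, against -0.0094 over all probe sets of array A. Without mustard ears 5 and 37 the median was 0.64 and 11 of 12 were positive. The list was drawn up with earlier results of these data known, and Gbp2 was already seen to differ.

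Gbp2, a guanylate-binding protein of the interferon-induced GTPase families, was the list member called. Its signal in pretreated ears was 185 at the lowest, 297 at the median and 591 at the highest, against 113, 173, 157, 139 and 172 in mustard ears 1, 3, 5, 36 and 37. Methylene chloride ears had 50.3 to 113 with a median of 63.3. All 6 pretreated ears stood above all 5 mustard ears, and both groups stood above the methylene chloride median. On array A 191 probe sets (1.2%) were without overlap between pretreated and mustard ears, 75 of them among the 287 called. A lack of overlap was thus common among calls, and for a called gene it is not separate support. Gbp2 rose by 1.01 ± 0.24 (adjusted p = 0.0349), and the log2 fold was 1.10 ± 0.28 without ears 5 and 37. Against methylene chloride ears the log2 fold was 1.96 in pretreated ears and 0.94 in mustard ears, in comparisons that called 35.9% and 42.8% of all probe sets and share the methylene chloride ears.

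Ifi47 and Parp12, picked after their values were seen for their small p-values on array A without ears 5 and 37, rose as well. Their log2 folds without those ears follow from that choice and are not a separate check. Ifi47, an interferon-gamma-inducible GTPase, had 219 at the lowest, 237 at the median and 311 at the highest in pretreated ears and 73.3, 96.7, 199.6, 110.3 and 153 in mustard ears 1, 3, 5, 36 and 37. The groups did not overlap, and the 2 highest mustard ears were the dim ears 5 and 37. Its log2 fold was 0.96 ± 0.23 (adjusted p = 0.0356), and 1.29 ± 0.26 without ears 5 and 37. Parp12, an ADP-ribosyltransferase with antiviral activity, had 239.9 at the lowest, 314 at the median and 399 at the highest in pretreated ears and 181, 191, 195, 171 and 172 in mustard ears. The mustard ears lay close together and below every pretreated ear, with a log2 fold of 0.73 ± 0.13 (adjusted p = 0.022), and 0.74 ± 0.16 without ears 5 and 37. Against methylene chloride ears, Ifi47 was at 1.18 in pretreated ears and 0.22 in mustard ears, and Parp12 at 0.62 in pretreated ears and -0.11 in mustard ears.

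Iigp1, Igtp and Ifit1 belong to the same response and did not pass the test. Iigp1, which loads onto the vacuoles of parasites, had 403 to 958 with a median of 651 in pretreated ears and 264 to 602 with a median of 359 in mustard ears. Its log2 fold was 0.66 ± 0.19 with an adjusted p of 0.0561, and the highest mustard ear was ear 37. Igtp, a related GTPase, had 251 to 1112 with a median of 362 in pretreated ears and 229.9, 308, 273, 278 and 350.4 in mustard ears. Ifit1, which binds viral RNA, had 119 to 332 with a median of 204 in pretreated ears and 105, 158, 143, 105 and 189 in mustard ears. Igtp and Ifit1 overlapped between the groups, with log2 folds of 0.57 ± 0.23 and 0.49 ± 0.21 (95% intervals 0.094 to 1.04 and 0.069 to 0.90). Without pretreated ear 21, the highest for Igtp, its log2 fold was 0.30. Without ears 5 and 37 the log2 folds were 0.85 for Iigp1, 0.64 for Igtp and 0.65 for Ifit1. The chemokines Cxcl9 and Cxcl10, at 1.25 and 0.73, or 1.28 and 0.79 without ears 5 and 37, were not called either. The 2 members with a negative log2 fold were Oasl1 at -0.35 and the transcription factor Irf1 at -0.079, or -0.14 and 0.076 without those ears.

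The promoters of Gbp2, Igtp and Ifit1 are shown as examples of list members whose promoter holds the interferon motif; of the 3, Gbp2 was called and Igtp and Ifit1 were not. Each runs from 250 bases before to 50 bases after the start of the gene, from RefSeq on build GRCm38.p6, read 5′ to 3′ along the gene. Capitals mark matches to GAAANNGAAA on either strand, the core of the interferon-stimulated response element.
Gbp2 (chr3:142620413-142620712, + strand): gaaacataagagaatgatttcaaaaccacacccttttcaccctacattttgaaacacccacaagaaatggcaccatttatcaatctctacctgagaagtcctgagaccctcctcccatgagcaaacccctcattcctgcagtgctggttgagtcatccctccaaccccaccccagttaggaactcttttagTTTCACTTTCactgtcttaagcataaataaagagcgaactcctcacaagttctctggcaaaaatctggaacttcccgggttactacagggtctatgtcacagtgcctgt
Igtp (chr11:58199306-58199605, + strand): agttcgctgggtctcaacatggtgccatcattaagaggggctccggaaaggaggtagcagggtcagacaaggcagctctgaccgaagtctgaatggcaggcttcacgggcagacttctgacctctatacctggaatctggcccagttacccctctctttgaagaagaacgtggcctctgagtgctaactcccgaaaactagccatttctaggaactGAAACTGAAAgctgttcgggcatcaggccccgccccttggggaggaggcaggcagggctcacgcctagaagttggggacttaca
Ifit1 (chr19:34640639-34640938, + strand): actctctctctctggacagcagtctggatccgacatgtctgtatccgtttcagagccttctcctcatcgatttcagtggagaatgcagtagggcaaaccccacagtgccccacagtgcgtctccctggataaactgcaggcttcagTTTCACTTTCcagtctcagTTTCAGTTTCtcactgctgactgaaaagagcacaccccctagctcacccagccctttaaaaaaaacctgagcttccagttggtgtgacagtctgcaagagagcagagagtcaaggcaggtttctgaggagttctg
Such a match was found in the promoters of 6 of the 10 kept list members that had one among those searched, and in 1131 of all 32851 promoters (3.443%). Promoters of list members on a single chromosome were left out of the search, and the whole kept that chromosome. List members were counted by gene, over any of their promoters, and the whole by promoter. The list is one of interferon-stimulated genes, so a larger share among them says nothing about these ears. Counted from the start of the gene, the match of Gbp2 began at base -59, that of Igtp at -34 and those of Ifit1 at -104 and -85. Ifi47 and Parp12 held no match in this window.

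The same genes were set against ears given the other drugs before mustard, a comparison that uses no mustard-alone ear apart from the shared estimate of spread. It was added after the values were seen, and it shares the pretreated ears with the main comparison. Gbp2 was higher after indomethacin than after octylhomovanillamide by 1.73 ± 0.24 (adjusted p = 6.71e-05) and than after dimercaprol by 1.19 ± 0.23 (adjusted p = 0.000892). Ears given octylhomovanillamide had a lowest, median and highest Gbp2 signal of 53.2, 66.5 and 146, and ears given dimercaprol 84.4, 125 and 186. No octylhomovanillamide ear reached the pretreated range, and the highest dimercaprol ear just entered it. Over all probe sets of array A, 2.07% were called against octylhomovanillamide and 10.5% against dimercaprol.

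Ifi47 was higher than after octylhomovanillamide by 1.13 ± 0.23 (adjusted p = 0.0176) and than after dimercaprol by 1.20 ± 0.22 (adjusted p = 0.000694). Iigp1 gave 0.86 ± 0.19 (adjusted p = 0.0207) and 0.90 ± 0.18 (adjusted p = 0.00169), and Igtp 1.21 ± 0.23 (adjusted p = 0.0158) and 1.10 ± 0.22 (adjusted p = 0.00162), in the same order. Ifit1 was called against dimercaprol, at 0.73 ± 0.20 (adjusted p = 0.0144), and not against octylhomovanillamide, at 0.58 ± 0.21 (adjusted p = 0.106). Parp12 was called against neither, at 0.42 ± 0.13 (adjusted p = 0.0707) for octylhomovanillamide and 0.17 ± 0.13 (adjusted p = 0.42) for dimercaprol. In a fit of only the pretreated and octylhomovanillamide ears the adjusted p was 0.0426 for Ifi47, and the calls of Gbp2 (0.131), Iigp1 (0.143) and Igtp (0.146) were lost. Without rescaling, the calls of Ifi47 (0.160), Iigp1 (0.244) and Igtp (0.145) against octylhomovanillamide were lost, and that of Iigp1 against dimercaprol (0.0699). The call of Ifit1 against dimercaprol was lost with only the 2 groups (0.0777), with brightness as a covariate (0.0652), without rescaling (0.165) and in 2 of 12 fits that left out 1 ear. Leaving out each ear in turn kept all calls of Gbp2, and all calls of Ifi47, Iigp1 and Igtp against dimercaprol. Against octylhomovanillamide, 8, 7 and 9 of 11 fits kept the calls of Ifi47, Iigp1 and Igtp.

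**Figure D3:**
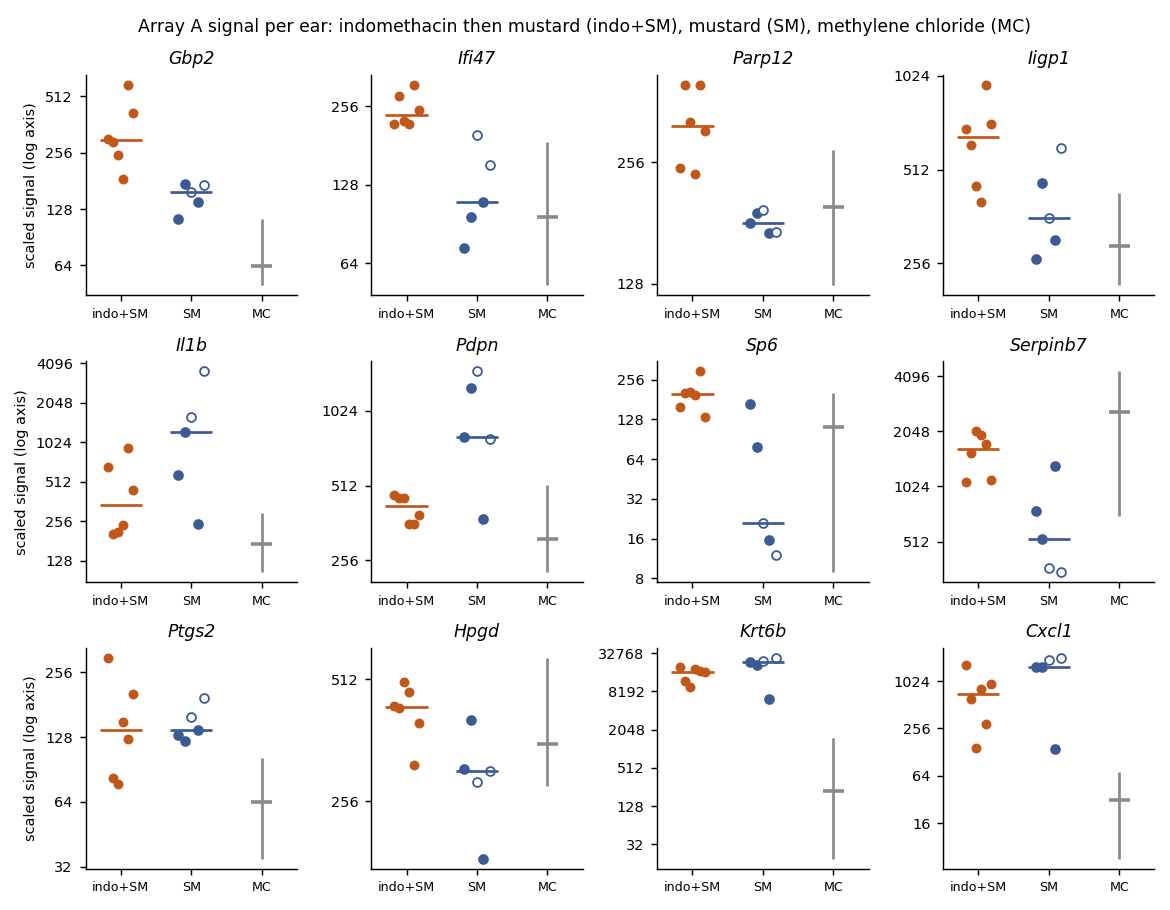
Scaled array A signal (log2-spaced y axis) of 12 genes by ear; points are pretreated ears (indo+SM) and mustard ears (SM, with ears 5 and 37 open), short lines are medians, and the grey bar is the range of 21 methylene chloride ears (MC) with its median. Gbp2, Ifi47 and Parp12 have every pretreated ear above every mustard ear, whereas Ptgs2, Krt6b and Cxcl1 overlap, Krt6b through mustard ear 36 alone.

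Of genes listed for the outer epidermis, 6 rose after indomethacin, and the list's median was larger with the dim mustard ears than without them. Keratinocytes on their way out make a cornified envelope, corneodesmosomes and the proteases and inhibitors that control shedding. Of 37 genes listed 36 were kept, 6 were called higher (of all probe sets, 1.15% of array A and 2.39% of array B) and none lower, 30 were positive, and the median log2 fold was 0.48, or 0.27 without ears 5 and 37. The 6 were Sp6, Dnase1l2 and Serpinb7 on array A and Spink5, Dsg1a and Grhl3 on array B. This list too was drawn up with earlier results of these data known, so its count of calls is not a separate test.

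Serpinb7, a serine protease inhibitor of the upper epidermis, had 1080.5 at the lowest, 1645 at the median and 2066 at the highest in pretreated ears and 751, 528, 366, 1329 and 349.7 in mustard ears 1, 3, 5, 36 and 37. It was lowest in ears 5 and 37, and ear 36 lay within the pretreated range. Serpinb7 was 1.37 ± 0.30 higher (adjusted p = 0.0278), and 0.91 ± 0.34 without ears 5 and 37. Methylene chloride ears had 707 to 4340.1 with a median of 2618, so that both groups' medians lay below theirs, and the log2 fold over methylene chloride was -0.68 in pretreated ears and -2.05 in mustard ears. Dnase1l2, the enzyme that clears DNA from cornifying cells, had 552 at the lowest, 676 at the median and 838 at the highest in pretreated ears and 488, 274, 170.5, 429 and 20.3 in mustard ears. The groups did not overlap, and mustard ear 37 stood far below the other 10 ears. Its log2 fold was 1.70 ± 0.41 (adjusted p = 0.0356), and 0.79 ± 0.37 without ears 5 and 37. Sp6, a transcription factor of skin appendages and teeth, had 134 at the lowest, 199 at the median and 295 at the highest in pretreated ears and 167, 79.4, 21, 15.7 and 12.1 in mustard ears. Ear 1 was inside the pretreated range and ears 5, 36 and 37 were near the bottom of the scale, which gave a log2 fold of 1.89 ± 0.43 (adjusted p = 0.0329), and 1.35 ± 0.48 without ears 5 and 37.

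Spink5, the inhibitor of the kallikreins that cut corneodesmosomes, had 9097 at the lowest, 10935 at the median and 13554 at the highest on array B in pretreated ears and 7908, 8398, 6324, 5226 and 5112 in mustard ears. Every mustard ear was below every pretreated ear. The groups did not overlap for 301 probe sets of array B (1.74%), 156 of them among its 547 calls. Spink5 was 0.76 ± 0.18 higher (adjusted p = 0.0143), or 0.64 ± 0.21 without ears 5 and 37. Dsg1a, a desmosomal cadherin, had a log2 fold of 0.96 ± 0.24 (adjusted p = 0.0224), and Grhl3, a transcription factor of barrier formation, 0.70 ± 0.18 (adjusted p = 0.0235). Without ears 5 and 37 these were 0.60 ± 0.26 and 0.60 ± 0.21. Members that were not called included Ivl (1.03, and 0.48 without ears 5 and 37), which encodes involucrin, and Dsc1 (1.03 and 0.76), a desmosomal cadherin. Krt1 and Krt10, the keratins of the spinous layer, were at 0.0078 and -0.20, and Lor, which encodes loricrin, at -0.055. Elf5, an epithelial transcription factor outside the list, was 1.02 ± 0.26 higher (adjusted p = 0.0371), and 0.57 ± 0.25 without ears 5 and 37. Epcam, an adhesion molecule that marks Langerhans cells in skin and also epithelial cells, was 0.65 ± 0.17 higher (adjusted p = 0.0412), and 0.37 ± 0.18 without them. The other 9 kept markers of antigen-presenting cells did not pass, and the median of all 10 was 0.075; Itgax, an integrin of dendritic cells, was at -0.52 ± 0.15 (adjusted p = 0.0586) with groups that did not overlap.

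Il1b fell after indomethacin, and by much less without ears 5 and 37. Mustard ears 1, 3 and 36 remained in that fit, so the low ear 36 had more weight in it. Leaving out each ear in turn gave log2 folds of -1.86 to -0.92. Il1b, the inflammatory cytokine interleukin 1 beta, had 203 at the lowest, 339 at the median and 920.1 at the highest in pretreated ears and 573, 1223, 1590.1, 244 and 3549 in mustard ears 1, 3, 5, 36 and 37. Ears 5 and 37 were the highest of the 11, and ear 36 lay near the bottom of the pretreated range. The log2 fold was -1.37 ± 0.38 (adjusted p = 0.0489), and -0.55 ± 0.37 without ears 5 and 37, and a 2-sided exact permutation test over the 11 ears gave p = 0.0866. Il1b was the single call among 15 kept of 23 listed acute cytokines and chemokines, 10 of which were negative, with a median of -0.31 that turned to 0.041 without ears 5 and 37. Cxcl3 and Cxcl2, which attract neutrophils, were at -1.86 ± 0.65 and -1.29 ± 0.64, and at -0.90 and -0.15 without those ears. Il1rn, which encodes the antagonist of the interleukin 1 receptor, was at 0.40 ± 0.14 with an adjusted p of 0.108, and 0.54 ± 0.16 without them. Nlrp3, the inflammasome sensor, was at -0.82 ± 0.24 (adjusted p = 0.0613), and -0.29 ± 0.23 without them.

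Pdpn had 357 at the lowest, 423 at the median and 470.4 at the highest in pretreated ears, against 802, 1264, 1476, 375 and 788 in mustard ears 1, 3, 5, 36 and 37. Pdpn encodes podoplanin, a membrane protein of lymphatic vessels that migrating keratinocytes and fibroblasts also make. Mustard ear 36 was inside the pretreated range and the other 4 above it. The fall was -1.02 ± 0.23 (adjusted p = 0.0329), or -0.79 ± 0.26 without ears 5 and 37. Pretreated ears were 0.34 from the methylene chloride ears and mustard ears 1.36. Podoplanin was the single call among 19 kept of 24 genes of wounded keratinocytes, whose median was 0.039, and 0.33 without ears 5 and 37. Krt17 and Epgn, an activation keratin and an epidermal growth factor family ligand, were at -0.57 ± 0.24 and -0.55 ± 0.56 and were not called, with -0.31 and -0.087 without ears 5 and 37.

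Sting1, the sensor adaptor of cytosolic DNA, had 116 at the lowest, 149 at the median and 241 at the highest in pretreated ears and 262, 301, 359.6, 246 and 279.6 in mustard ears 1, 3, 5, 36 and 37. The groups did not overlap, and the log2 fold was -0.82 ± 0.21 (adjusted p = 0.0403), or -0.73 ± 0.25 without ears 5 and 37. Knstrn, a kinetochore protein of dividing cells, had 26.7 at the lowest, 68.6 at the median and 102 at the highest in pretreated ears and 189.5, 163, 135, 122 and 148 in mustard ears. All pretreated ears were below all mustard ears, with a fall of -1.08 ± 0.27 (adjusted p = 0.0357), and -1.13 ± 0.32 without ears 5 and 37. The Knstrn probe set of array B was opposite in sign and not called, at 0.50 with an adjusted p of 0.511. Knstrn was the single call among 21 kept of 24 proliferation genes, 17 of which were negative, with a median of -0.12. H2aj, which encodes a histone H2A variant, had 2920.5 at the lowest, 3292 at the median and 4342 at the highest in pretreated ears and 4709, 5424, 7231, 4401 and 5985 in mustard ears. The groups came close but did not overlap, at -0.68 ± 0.13 (adjusted p = 0.022), and -0.50 ± 0.14 without ears 5 and 37. Nt5dc3 and Zdhhc14, for a 5′-nucleotidase domain protein and a palmitoyltransferase, fell by 0.72 and 0.90 and were also without overlap, and their log2 folds were -0.42 and -0.78 without ears 5 and 37. The further falls named by size were Leng8 at -0.85, Ier5l at -0.84 and Tsks at -0.76, with log2 folds of -0.58, -0.78 and -0.54 without ears 5 and 37.

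Mgll, monoglyceride lipase, which releases arachidonic acid from the endocannabinoid 2-arachidonoylglycerol, had 5465 at the lowest, 6006 at the median and 7803 at the highest in pretreated ears and 6127, 8237, 11349.7, 13594 and 12646 in mustard ears 1, 3, 5, 36 and 37. Ear 1 was inside the pretreated range. The fall was -0.65 ± 0.16 (adjusted p = 0.0358), or -0.48 ± 0.19 without ears 5 and 37, and pretreated ears were -1.20 from methylene chloride ears against -0.55 for mustard ears. Pla2g2c, for a secreted phospholipase A2, fell by 0.67 (adjusted p = 0.0398), and its log2 fold was -0.41 ± 0.19 without ears 5 and 37.

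**Figure D4:**
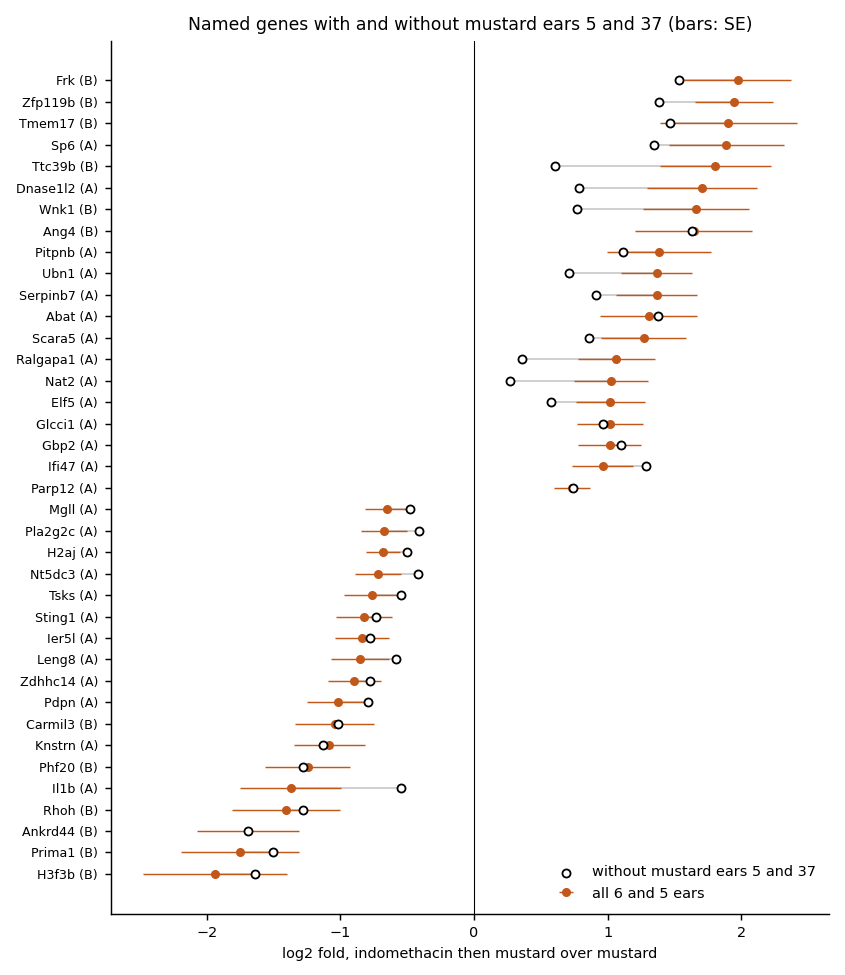
Log2 fold of indomethacin then mustard over mustard (x axis) for the named genes (y axis, array in brackets), with all ears (filled, bars are SE) and without mustard ears 5 and 37 (open). Gbp2, Abat, Ang4, Ankrd44 and Knstrn stay near their value, at 1.10, 1.38, 1.63, -1.69 and -1.13, whereas Il1b, Nat2 and Ttc39b shrink to -0.55, 0.27 and 0.60.

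Among other rises of array A, Abat had 94.6 at the lowest, 137 at the median and 238 at the highest in pretreated ears and 30.4, 98.6, 22.8, 24.1 and 102 in mustard ears 1, 3, 5, 36 and 37. Abat encodes the transaminase that breaks down GABA. Ears 3 and 37 were inside the pretreated range, and the log2 fold of 1.31 ± 0.36 (adjusted p = 0.0496) was 1.38 ± 0.42 without ears 5 and 37. Scara5, a ferritin receptor of dermal fibroblasts, had 147 at the lowest, 229 at the median and 355 at the highest in pretreated ears and 48, 117, 75.9, 249.6 and 29.4 in mustard ears. Ear 36 was inside the pretreated range, and Scara5 was 1.27 ± 0.32 higher (adjusted p = 0.0359), or 0.86 ± 0.35 without ears 5 and 37, but its other probe set on the array was opposite, at -0.87. Glcci1, a gene induced by glucocorticoids, was 1.01 ± 0.25 higher (adjusted p = 0.0356), with 0.97 ± 0.29 without those ears and -0.71 in pretreated ears against -1.73 in mustard ears relative to methylene chloride. Pitpnb, a phosphatidylinositol transfer protein, and Ubn1, a chromatin protein, were 1.38 ± 0.39 and 1.37 ± 0.27 higher, or 1.11 and 0.71 without ears 5 and 37. Their probe sets on array B were not called, at 0.31 ± 0.12 for Pitpnb and 0.092 ± 0.10 for Ubn1. Further probe sets of other called genes were also nearer to 0, at 0.38 for Sp6 and 0.29 for Ralgapa1 on array B, and at 0.34 for Dnase1l2, 0.0036 for Elf5, 0.0082 for H2aj and -0.34 to 0.13 for Zdhhc14 on array A. Epcam was called on array B too, at 0.99 ± 0.29 (adjusted p = 0.0442). Ralgapa1 and Nat2 were 1.07 ± 0.29 and 1.02 ± 0.28 higher, and 0.36 and 0.27 without ears 5 and 37, which held their lowest signals. Cat, the catalase gene, was 0.78 ± 0.19 higher (adjusted p = 0.0357), the single call of 14 kept genes of oxidative stress, and 0.62 ± 0.22 without ears 5 and 37.

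On array B, Ankrd44 and Ang4 had groups without overlap and log2 folds that hardly moved without the dim ears. Ang4, an antimicrobial ribonuclease, had 209 at the lowest, 266 at the median and 297 at the highest in pretreated ears and 202, 36.3, 104, 46.2 and 48.1 in mustard ears 1, 3, 5, 36 and 37. Its log2 fold was 1.64 ± 0.44 (adjusted p = 0.0296), and 1.63 ± 0.52 without ears 5 and 37. Ankrd44, a regulatory subunit of a protein phosphatase, had 38.7 at the lowest, 84.6 at the median and 250.1 at the highest in pretreated ears and 468, 319.6, 313, 314 and 414 in mustard ears. It fell by 1.69 (adjusted p = 0.0119), but its brightest probe set on array A was at 0.46, opposite in sign and not called. Frk, a Src family kinase of epithelia, had 157 at the lowest, 196 at the median and 271 at the highest in pretreated ears and 12.9, 83.7, 13.9, 139.8 and 26.7 in mustard ears, 3 of which were near the bottom of the scale. Frk was 1.97 ± 0.40 higher (adjusted p = 0.00647), or 1.53 ± 0.46 without ears 5 and 37. Rhoh, a GTPase of blood cells, and Carmil3, a regulator of actin capping, fell by 1.40 and 1.04 with no overlap, and were at -1.28 and -1.02 without ears 5 and 37. Zfp119b, Tmem17, Ttc39b and Wnk1 were 1.94, 1.90, 1.81 and 1.66 higher, with 1.38, 1.47, 0.60 and 0.77 without those ears. H3f3b, Prima1 and Phf20 were at -1.94, -1.75 and -1.25, with -1.64, -1.50 and -1.28 without them. On array A, Ttc39b, Wnk1, Prima1 and Phf20 were not called, at 0.26, 0.22, -0.22 and 0.10. Of 100 probe sets printed on both arrays, 75 had the same sign on each, from the same RNA.

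The prostaglandin pathway, the target of indomethacin, gave no call. Of 24 genes for its enzymes, transporters and receptors 15 were kept and none was called; 9 log2 folds were positive and 6 negative, with a median of 0.055, or 0.080 without ears 5 and 37. Ptgs2, the inducible cyclooxygenase, had 77.3 at the lowest, 138 at the median and 297 at the highest in pretreated ears and 131, 123, 158, 138 and 195 in mustard ears 1, 3, 5, 36 and 37. Pretreated ears surrounded the mustard ears, and both groups lay above the methylene chloride median of 63.7. The log2 fold was -0.058 ± 0.26 (95% interval -0.59 to 0.47), and 0.10 ± 0.31 without ears 5 and 37. Ptges, the microsomal prostaglandin E synthase that works with Ptgs2, had 1107 to 1536 with a median of 1403 in pretreated ears and 1600.0, 1728, 1129.5, 599 and 1043 in mustard ears. Its log2 fold was 0.23 ± 0.24 (95% interval -0.24 to 0.71), or 0.18 without ears 5 and 37, and 1.11 in pretreated ears and 0.88 in mustard ears against methylene chloride ears.

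Hpgd, the dehydrogenase that inactivates prostaglandins, came nearest to a call. It had 315 at the lowest, 438 at the median and 505 at the highest in pretreated ears and 307, 406, 287, 185 and 305 in mustard ears 1, 3, 5, 36 and 37. Mustard ear 3 was inside the pretreated range and the other 4 below its lowest ear, with a log2 fold of 0.53 ± 0.16 (adjusted p = 0.065), and 0.55 ± 0.19 without ears 5 and 37. In ears without mustard Hpgd was 0.74 ± 0.17 from naive ears after indomethacin, with an adjusted p of 0.108. Ptgds, the prostaglandin D synthase, had 194 to 360.4 with a median of 254 in pretreated ears and 311, 419, 302, 479 and 415 in mustard ears, at -0.50 ± 0.21 (adjusted p = 0.18), or -0.56 without ears 5 and 37. Hpgds, the other prostaglandin D synthase, was at 0.39 ± 0.21, and the prostacyclin and thromboxane synthases Ptgis and Tbxas1 at -0.31 ± 0.51 and 0.055 ± 0.19. Prxl2b, a prostamide and prostaglandin F synthase, Ptgr1, a reductase of prostaglandin breakdown, and Ptges2 were within 0.24 of 0.

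The transporters Slco2a1, which takes prostaglandins up, and Abcc4, which lets them out, were at -0.15 ± 0.13 and 0.021 ± 0.15. Of the receptors, Ptger4 had a log2 fold of -0.12 ± 0.20 (95% interval -0.51 to 0.28; -0.14 without ears 5 and 37), the prostaglandin F receptor Ptgfr 0.51 ± 0.25 and the thromboxane receptor Tbxa2r 0.28 ± 0.24. Against methylene chloride ears Ptger4 was at -0.63 in pretreated ears and -0.52 in mustard ears. Ptger1, Ptger2, Ptger3, Ptgir, Ptgdr and Ptgdr2 were under the minimum mean signal, and Ptgs1, Ptges3 and Akr1b3 had no probe set with a single symbol. Over 18 kept of 20 genes that respond to prostaglandin E2 or cyclic AMP, none was called and the median was -0.11, or 0.026 without ears 5 and 37. Arg1 and the orphan nuclear receptor Nr4a1, both cyclic AMP responsive, were at -0.90 ± 0.32 and -0.52 ± 0.28.

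Lipoxygenase and leukotriene genes were not called either, with 12 of 15 kept and a median of 0.15. The epidermal lipoxygenases Alox12b and Alox12e were at 0.64 ± 0.27 and 0.70 ± 0.35, with 95% intervals of 0.09 to 1.19 and -0.01 to 1.42, and at 0.62 and 0.42 without ears 5 and 37. Alox12b lay 1.24 above methylene chloride ears in pretreated ears and 0.60 above them in mustard ears. Alox5, which starts leukotriene synthesis, was at -0.39 ± 0.15 and Lta4h, which makes leukotriene B4, at 0.39 ± 0.13. The phospholipase Pla2g4a, which frees arachidonic acid inside cells, was at 0.26 ± 0.20.

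**Figure D5:**
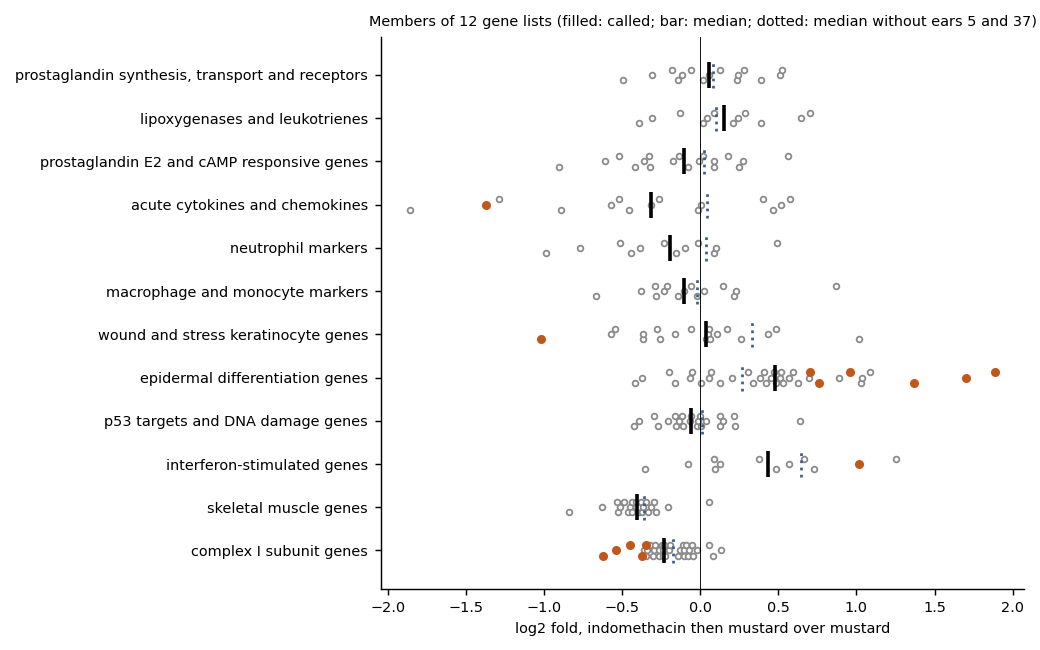
Log2 fold of indomethacin then mustard over mustard (x axis) of the kept members of 12 gene lists (rows); filled points were called, black bars are medians and dotted bars medians without mustard ears 5 and 37. The interferon list has its median at 0.43, or 0.64 without ears 5 and 37, and the prostaglandin list at 0.055.

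The large genes of the mustard wound showed how wide the spread between ears was. Krt6b, a keratin of activated epidermis, had 9562 at the lowest, 16654 at the median and 19647 at the highest in pretreated ears and 23500.5, 21297, 24379, 6113 and 27097 in mustard ears 1, 3, 5, 36 and 37, with ear 36 below all others. The 95% interval of its log2 fold was -1.77 to 1.21, and its distance from methylene chloride ears was 6.15 in pretreated ears and 6.43 in mustard ears. Cxcl1, a neutrophil chemokine, had 144 to 1634 with a median of 704 in pretreated ears and 1533, 1557, 1918, 141 and 1997 in mustard ears, at -0.89 ± 0.60, or -0.32 without ears 5 and 37. S100a8, an antimicrobial protein of neutrophils and stressed keratinocytes, was at -0.10 ± 0.65 (95% interval -1.40 to 1.21), or 0.39 without ears 5 and 37. The p53 target genes Cdkn1a, a cell cycle inhibitor, and Mdm2, which degrades p53, were at -0.42 ± 0.17 and -0.13 ± 0.23, and none of 23 kept genes of this group was called, with a median of -0.060.

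Neutrophil, macrophage and T cell markers gave no call, over 12 of 19, 15 of 18 and 5 of 12 markers kept, with medians of -0.19, -0.11 and -0.11. In bulk skin, fewer cells of a type and less RNA per cell cannot be told apart. The summed array A signal of the neutrophil markers was 12517 to 40847 in pretreated ears and 7296 to 45183 in mustard ears, against 2516 to 5122 in methylene chloride ears, and ear 36 was the lowest mustard ear. That of the macrophage markers was 18440 to 21218 in pretreated ears and 17698 to 28117 in mustard ears. Cd3e, a T cell receptor subunit, was at -0.94 ± 0.32 (adjusted p = 0.0965), and -1.22 ± 0.37 without ears 5 and 37.

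Skeletal muscle genes gave no call, but nearly all had a negative log2 fold. All 24 were kept, 23 were negative, and the median was -0.40, or -0.36 without ears 5 and 37. The summed signal of the 23 on array A was 48374 to 134348 in pretreated ears, with a median of 112966, and 96525, 161718, 161698, 127089 and 145263 in mustard ears 1, 3, 5, 36 and 37. The groups overlapped, and the methylene chloride ears covered both, from 33333 to 186835. Tnnt1 and Myh2, for a troponin and a myosin of muscle fibres, were at -0.84 ± 0.39 and -0.63 ± 0.35. With the muscle mean as a covariate 7 probe sets of array A were called, and 572 of array B.

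Genes of mitochondrial complex I, a group added after the results were seen, had 5 of 35 kept members called lower (of all probe sets, 0.652% of array A and 0.775% of array B), 32 negative and a median of -0.23, or -0.18 without ears 5 and 37. Ndufv3 had 2104 to 3329 with a median of 2309.8 in pretreated ears and 2629, 3593, 3592, 4830.2 and 4293 in mustard ears, at -0.62 ± 0.13 (adjusted p = 0.0278). Ndufa13 was at -0.54 ± 0.12 (adjusted p = 0.0278), and without ears 5 and 37 the log2 folds were -0.57 for Ndufv3 and -0.40 for Ndufa13. Muscle is rich in these genes. With the muscle mean as a covariate array A gave 7 calls against 287 without it, and 29 of 48 called gene results lost their call. These counts are not of complex I genes alone. All 287 probe sets kept their direction and an unadjusted p under 0.05 in that limma fit. The part of muscle in the complex I difference was not tested apart from that fit. Plin2, which coats lipid droplets, fell by 0.40 and Scd1, a fatty acid desaturase, by 0.44, while without rescaling the arrays Plin2, Scd1 and Ndufa13 turned positive. Without ears 5 and 37 Plin2 was at -0.27 and Scd1 at -0.23. Clock, of the circadian oscillator, was 0.44 ± 0.12 higher (adjusted p = 0.0496) with groups that did not overlap, and 0.33 ± 0.14 without ears 5 and 37. Myc, the growth-promoting transcription factor, missed the threshold at 0.43 ± 0.12 (adjusted p = 0.0505), and was 0.43 ± 0.14 without ears 5 and 37.

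Indomethacin without mustard was measured on array A in 4 ears against 5 naive ears of 3 animals. It called 26 probe sets (0.163%), 20 higher and 6 lower, and none by limma when ethanol ears took the place of naive ears; 1430 had an unadjusted p under 0.05 against naive ears. The ethanol ears were the left ears of animals 507, 515 and 520, whose right ears had a drug. Ear 507 was dim, at a brightness of 66.7 against 98.4 to 113 in ears given indomethacin alone. Ear 515 had a Gapdh ratio of 0.31. The part of these ears' quality in the results with ethanol ears was not tested. Of the 287 probe sets called after mustard, none was called without mustard. The difference between the effect with mustard and the effect without it was called for 11 probe sets (0.069%), of which 4 were among the 287, and for 1 probe set without mustard ears 5 and 37. Angptl4, an inhibitor of lipoprotein lipase that PPAR ligands and glucocorticoids induce, was one of the 11. Without mustard it had 345 to 561 after indomethacin and 48 to 127 in naive ears, a log2 fold of 2.17 ± 0.32 (adjusted p = 0.00531). With mustard it had 157 at the lowest, 524 at the median and 656 at the highest in pretreated ears and 432, 737, 1026, 303 and 956 in mustard ears 1, 3, 5, 36 and 37, which overlapped, at -0.46 ± 0.30, or -0.028 ± 0.33 without ears 5 and 37. The difference of the differences was -2.63 ± 0.47 (adjusted p = 0.00579).

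Ddit3, a transcription factor of the unfolded protein response, had 178 at the lowest, 291 at the median and 295 at the highest in pretreated ears and 309.6, 616, 389, 363 and 466 in mustard ears, which did not overlap. Its log2 fold was -0.61 ± 0.17 (adjusted p = 0.0513), with -0.59 ± 0.21 without ears 5 and 37, and 0.97 ± 0.19 without mustard (adjusted p = 0.0415). The difference of the differences was -1.58 ± 0.27 (adjusted p = 0.00358). With ethanol ears in place of naive ears both calls were lost, at -1.48 ± 0.47 (adjusted p = 0.224) for Angptl4 and -0.59 ± 0.27 (adjusted p = 0.365) for Ddit3. Without mustard ears 5 and 37 Angptl4 was at -2.20 ± 0.49 (adjusted p = 0.268) and Ddit3 at -1.56 ± 0.29 (adjusted p = 0.0257). Against ethanol ears, the indomethacin effect without mustard was -0.022 for Ddit3 and 1.02 for Angptl4. The interferon-inducible genes were not called without mustard, with log2 folds of 0.30 for Gbp2, 0.47 for Ifi47 and -0.10 for Parp12, nor in the difference of the differences.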

How the data were processed

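RNA of ear skin was hybridized to paired Affymetrix arrays, called array A and array B. The deposited values are signal intensity per probe set, made by the authors with MAS5, per the submitters' processing notes, whose version is not given in the sources used here. Signals were multiplied so that every array had a 2% trimmed mean of 500, 16 was added, and log2 was taken. Probe sets with a mean scaled signal under 100 were left out. The 5 mustard-series groups were fitted together with limma 3.58.1 (R 4.3.3, lmFit and eBayes with a trend), and p-values were Benjamini-Hochberg adjusted over each array. The fit was tested on simulated data. Within a group, replicates were ears of separate animals, except the naive ears, and the number of arrays limits precision. Across the 5 groups, 17 animals gave both ears, 4 of them with a pretreated and 4 with a mustard ear. The main fit took these ears as independent, also in the folds against methylene chloride ears. Animal 515 gave both an ethanol ear and an indomethacin ear.

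Named genes were, among calls with every pretreated ear on 1 side of the mustard mean, the 12 largest rises and 12 largest falls on array A, the 6 largest each way on array B, at most 4 genes per list ranked by adjusted p, all kept prostaglandin genes, and a fixed panel. Predicted genes and probe sets of several genes were skipped. Members and lists were chosen with earlier results of these data known. Ifi47, Parp12, Ndufv3, Ndufa13, the complex I group and the comparisons with other drugs were added after values were seen. Tables and figures used Python 3.11.15, pandas 2.3.3, numpy 2.4.6 and matplotlib 3.10.9.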

Additional observations from a re-analysis of the deposited data

Results flagged for a closer look

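Among 222 groups of ears examined, 17 held an ear far from the others of its group, where chance gives about 1 in 20. Mustard ear 36 was that ear in 10 of the 17. It was the lowest mustard ear for Krt6b at 6113, Krt16 at 3932, Krt17 at 2498, S100a8 at 2714, S100a9 at 1463, Cxcl1 at 141, Epgn at 622 and Tnnt1 at 704, and the highest for Slco2a1 at 476. Its response score over risen probe sets of array A, 1.58, was likewise the lowest. Pretreated ear 21 was the lowest for Angptl4 at 157 and Ddit3 at 178, and the highest for Nlrp3 at 498. Pretreated ear 16 was the highest for Ttc39b on array B, at 1066, and pretreated ear 18 the highest for Ndufv3, at 3329. Mustard ear 1 was the lowest for Ptgis at 241, and mustard ear 37 the lowest for Cd3e at 69.3.

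For Angptl4 and Ddit3 the effect of indomethacin with mustard was set against its effect without mustard, by the interaction term of the limma fit with naive ears. The difference was -2.63 for Angptl4 and -1.58 for Ddit3 on the log2 scale, and both were called. With ethanol ears in place of naive ears neither was, at -1.48 and -0.59, and without mustard ears 5 and 37 only Ddit3 was, at -1.56 against -2.20 for Angptl4. Without rescaling Ddit3 was at -0.82 and its call was lost.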

How the results depend on the processing

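Array A gave 287 calls and array B 547. On array A there were 155 without the filter on low values, 71 with animal as a random block, 7 with the muscle mean as a covariate, and 0 with only the 2 groups, the Gapdh ratio, array brightness or without mustard ears 5 and 37. Array B gave 0 with only the 2 groups or without ears 5 and 37, and 1 with the Gapdh ratio or brightness. The 2 groups share no animals. In a replicate block, as right minus left ear within animals, 0 were called on both arrays. Without rescaling 5957 were called on array A, 5956 of them higher (183 of 287 with rescaling), and 3639 on array B, 3632 higher (413 of 547). Without rescaling Scd1 was at 0.13, Ndufa13 at 0.025 and Plin2 at 0.17. Leaving out each ear gave 0 to 1220 calls on array A (without mustard ear 1, 3, 5, 36 or 37 in turn 926, 167, 0, 1220 and 0; without pretreated ear 17, 18, 19 or 21 in turn 15, 76, 11 and 44) and 46 to 1217 on array B (150 without mustard ear 5, 1217 without 36, 46 without 37 and 206 without pretreated ear 18).

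Indomethacin without mustard gave 0 calls against ethanol ears, 2 without rescaling and 0 to 24 leaving out each animal (0 without naive animal 502). The difference of differences gave 6 with ethanol ears, 2164 without rescaling, 37 with quantile normalization, 3 without the filter, 1 without ears 5 and 37 and 2 to 192 leaving out each animal (192 without mustard ear 36, 116 without mustard ear 1). The difference in the fallen score of array A, -0.27, was -0.34 to -0.15 leaving out each ear, -0.40 with probe sets chosen by dimercaprol, -0.11 with quantile normalization, -0.083 without the 2-fold threshold and 0.54, of opposite sign, without rescaling. The fallen score of array B could not be had without rescaling. Of 48 called gene results, all 48 kept their direction and their call with a floor of 16 in place of the pseudocount, and none kept its call with only the 2 groups, the Gapdh ratio, brightness, the replicate block or without ears 5 and 37. By the exact permutation test over ears, adjusted over the genes so tested, the 4 called genes tested (Gbp2, Sp6, Pdpn and Il1b) lost their calls. The cause was not tested.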
